A study of Canis lupus familiaris with 25 samples.

Results

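The genes described here are the 40 genes of a module for glycolysis, glucose uptake and lactate transport, out of 24532 genes in the deposited count table. They were taken by gene name, and all 40 were found as rows of the table. They comprise 6 glucose transporters, 3 hexokinases, 7 further enzymes of upper glycolysis, 3 enzymes that set the level of fructose 2,6-bisphosphate, 5 enzymes of lower glycolysis, 2 lactate dehydrogenases, 4 pyruvate dehydrogenase kinases with 2 subunits of pyruvate dehydrogenase, 2 lactate transporters, 3 enzymes of the pentose phosphate pathway, the hypoxia-inducible factor gene HIF1A with its target CA9, and FBP1 of gluconeogenesis.

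Glycolysis breaks glucose down to pyruvate in the cytosol and yields ATP without oxygen. Pyruvate can be reduced to lactate and exported, or it can enter mitochondria, where the pyruvate dehydrogenase complex turns it into acetyl-CoA, the starting material of the citric acid cycle and of fatty acid synthesis. Pyruvate dehydrogenase kinases switch that complex off by phosphorylation, the pentose phosphate pathway diverts glucose 6-phosphate to make NADPH and ribose, and the hypoxia-inducible factor raises transcription of many of these genes when oxygen is short.

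The samples were archived tumors of pet dogs, fixed in formalin and embedded in paraffin, that had been trimmed of adjacent tissue. They comprised 10 hepatoid gland adenomas (HGA), benign tumors of the modified sebaceous glands around the anus, 11 primary apocrine gland anal sac adenocarcinomas (AGASAC) and 4 sublumbar lymph node metastases of the dogs with AGASAC 1 to 4. The dogs with HGA were 8 to 14 years old and those with AGASAC 8 to 12.5 years old, of several breeds and without any stated treatment or engineered genotype. Each sample was 1 bulk library made with QuantSeq 3′, which reads transcripts near their 3′ end, so counts are not divided by transcript length.

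Total counts ran from 1562347 in HGA 4 to 6389555 in HGA 1, with 2581453 to 4218340 in the primary AGASAC and 2857541 to 3289546 in the metastases. A count of 3 corresponded to between 0.543 and 1.84 CPM, the count scaled to library size with TMM factors (trimmed mean of M-values) over all 25 samples, and values below that level were treated as not detectable at this depth. The tumor labels were checked against marker genes: 7 squamous and sebaceous genes summed to between 5241 and 17807 CPM in the HGA and at most 30.5 CPM in the primary AGASAC, with KRT79 at 0 in all 11. The 6 glandular genes summed to between 289 and 638 CPM in the HGA, 5299 and 10442 CPM in the primary AGASAC, and 4811 and 10855 CPM in the metastases.

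HGA versus AGASAC. The first comparison asked how the 10 HGA differed from the 11 primary AGASAC, with AGASAC as the baseline. The HGA held far more transcript of the pentose phosphate enzymes, of 3 of the 4 pyruvate dehydrogenase kinases and of LDHA, while none of the enzymes of the glycolytic chain from GPI to PKM was called. Of the 40 genes, 35 had enough counts to be tested, and 14 of them were called, where a call needed both an adjusted p up to 0.05 and a difference of 1 log2 unit or more (edgeR quasi-likelihood test, Benjamini-Yekutieli adjustment over all tested genes). HGA had higher levels of 12 genes, against 12.6% of all 12070 tested genes called higher, and lower levels of 2, against 12.5% of all genes called lower. The median log2FC of the 35 genes was 0.65, compared with −0.03 over all tested genes. For 7 of the 35 genes the HGA and AGASAC values did not overlap, against 9.13% of all tested genes. The 40 genes were chosen with earlier results of these data known, so such contrasts, here and below, are descriptions. HK2, HK3, SLC16A1, SLC16A3 and CA9 had too few counts to be tested.

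**Figure D1:**
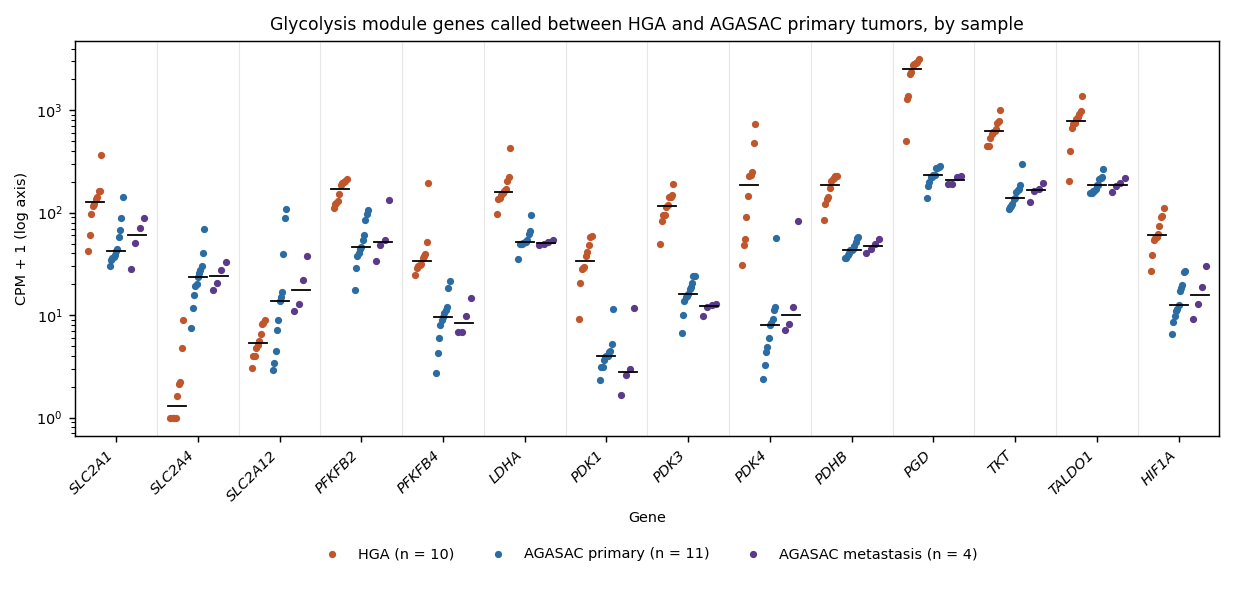
CPM + 1 on a log axis for the 14 called genes, with 1 point per sample, the HGA, primary AGASAC and metastases side by side, and a black line at each group's median. PGD, PDK3 and PDHB were higher in every HGA than in any AGASAC, and SLC2A4 had a median of 0.304 CPM in the HGA and 22.6 CPM in the primary AGASAC.

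Among the glucose transporters, SLC2A1 (GLUT1, the broadly expressed transporter that supplies basal glucose uptake) was higher in the HGA. Its level ranged from 41.6 CPM in HGA 7 through a median of 127 CPM to 368 CPM in HGA 4, and in the primary AGASAC from 28.9 CPM through a median of 41.0 CPM to 141 CPM in AGASAC 5. The groups overlapped, since AGASAC 5 lay above the HGA median and HGA 7 near the AGASAC median. The log2FC was 1.38 (SE 0.33, adjusted p = 0.0146 by edgeR with Benjamini-Yekutieli adjustment). With library sizes alone as the scaling, SLC2A1 was no longer called.

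SLC2A4, the insulin-responsive transporter GLUT4 of muscle and fat, moved the other way. It had 0 counts in 5 of the 10 HGA, a median of 0.304 CPM and a highest value of 7.96 CPM in HGA 6, whereas the primary AGASAC ranged from 6.53 CPM through a median of 22.6 CPM to 68.2 CPM in AGASAC 9. Only HGA 6 reached the lowest AGASAC. SLC2A4 had enough counts to be tested only because of the AGASAC, where it was high. The log2FC was −3.93 (SE 0.68, adjusted p = 0.000498, edgeR, Benjamini-Yekutieli). Skeletal muscle markers, 12 genes, summed to between 6.07 and 1150 CPM in the primary AGASAC and 2.55 to 23.8 CPM in the HGA. In the metastases those markers summed to 2.89 to 6.71 CPM, with MYH1, MYH2, CKM, TNNT3, MYL1 and ACTN3 at 0, and SLC2A4 was at 26.6, 16.4, 19.6 and 31.9 CPM in metastases 1 to 4. The part of muscle cells in the SLC2A4 level of the primary AGASAC was not tested.

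SLC2A12, another transporter of the same family (GLUT12), was also lower in the HGA, at 2.04 to 7.99 CPM with a median of 4.33 CPM. The primary AGASAC were widely spread, from 1.94 CPM in AGASAC 11 through a median of 12.7 CPM to 87.0 and 108 CPM in AGASAC 4 and AGASAC 8. Several AGASAC therefore lay within the HGA range. The log2FC was −2.45 (SE 0.63, adjusted p = 0.027, edgeR, Benjamini-Yekutieli), and the call was lost without AGASAC 4, without AGASAC 8 or without any 1 of HGA 5 to 9, with an adjusted p of up to 0.0803. SLC2A3, SLC2A8 and SLC2A10 were not called, with log2FC values of −0.01 (SE 0.31), −0.66 (SE 0.28) and −0.18 (SE 0.46).

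The make-up of the transporter transcripts therefore differed. SLC2A1 made up a median of 67.4% of the counts of the 6 transporter genes in the HGA and 24.6% in the primary AGASAC. SLC2A4 made up a median of 0.1% in the HGA, with a highest value of 3.7% in HGA 6, and 13.1% in the primary AGASAC. These shares are of 3′ read counts and are given as a description.

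Hexokinases trap glucose in the cell by phosphorylation. HK1 carried a median of 97.3% of the counts of the 3 hexokinase genes in the HGA and 98.1% in the primary AGASAC. HK1 ranged from 122 to 424 CPM in the HGA, with a median of 147 CPM, and from 48.9 to 244 CPM in the primary AGASAC, with a median of 91.5 CPM. The groups overlapped, and HK1 was not called (log2FC 0.78, SE 0.27, adjusted p = 0.198, edgeR, Benjamini-Yekutieli). HK2, the inducible hexokinase often raised in tumors, had 0 counts in 4 HGA and reached at most 16.6 CPM in HGA 4 and 15.0 CPM in AGASAC 4. HK3 did not exceed 2.58 CPM in any sample.

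None of the 7 upper glycolytic enzymes was called. GPI, which isomerizes glucose 6-phosphate, stood at medians of 144 CPM in the HGA and 168 CPM in the primary AGASAC, with a log2FC of −0.03 (SE 0.15). The 3 phosphofructokinase genes, whose product catalyses the committed step, had log2FC values of −0.26 (PFKL, SE 0.19), −0.32 (PFKM, SE 0.36) and −0.91 (PFKP, SE 0.52). PFKL led in both tumors, with a median share of the 3 genes' counts of 61.7% in the HGA and 58.7% in the primary AGASAC.

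ALDOA, which splits fructose 1,6-bisphosphate, came closest to a call. It ranged from 82.1 through 154 to 437 CPM in the HGA, where HGA 9 was highest, and from 66.7 through 101 to 118 CPM in the primary AGASAC. Its adjusted p passed, but its fold did not (log2FC 0.98, SE 0.23, adjusted p = 0.0117, edgeR, Benjamini-Yekutieli), and it was called in 7 of the 21 fits that left out 1 sample. ALDOA was also called with RNA extraction batch as a covariate (log2FC 1.06) and with all 15 AGASAC samples (log2FC 1.01). ALDOC and TPI1 had log2FC values of 0.41 (SE 0.39) and −0.05 (SE 0.18) and were not called.

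The bifunctional enzymes that make and remove fructose 2,6-bisphosphate, the strongest activator of phosphofructokinase, were higher in the HGA for 2 of 3 genes. PFKFB2 ranged from 110 through 168 to 212 CPM in the HGA and from 16.5 through 45.1 to 106 CPM in the primary AGASAC, so the groups did not overlap. Its log2FC was 1.58 (SE 0.26, adjusted p = 0.000195, edgeR, Benjamini-Yekutieli). PFKFB4 was between 23.4 and 51.3 CPM in 9 of the HGA and 196 CPM in HGA 10, and the median of all 10 was 32.9 CPM.

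In the primary AGASAC, PFKFB4 ranged from 1.72 CPM through a median of 8.62 CPM to 20.7 CPM, below every HGA. The log2FC was 2.45 (SE 0.42, adjusted p = 0.000372, edgeR, Benjamini-Yekutieli). PFKFB3 was not called (log2FC 0.60, SE 0.28), and its highest value was again HGA 10, at 207 CPM, compared with at most 113 CPM in the other HGA.

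None of the 5 enzymes of lower glycolysis was called, and their directions were mixed. GAPDH had medians of 606 CPM in the HGA and 808 CPM in the primary AGASAC (log2FC −0.55, SE 0.22), and PGK1 had 73.5 and 106 CPM (log2FC −0.44, SE 0.21). PKM, which makes pyruvate in the last step, had medians of 62.2 and 122 CPM (log2FC −0.73, SE 0.22, adjusted p = 0.0878, edgeR, Benjamini-Yekutieli). None of these 3 differences passed the threshold, although PKM was called lower with library sizes alone as the scaling.

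PGAM1 and ENO1, which act between PGK1 and PKM, had higher observed levels in the HGA. PGAM1 ranged from 292 through 488 to 605 CPM in the HGA and from 236 through 279 to 309 CPM in the primary AGASAC, and only the lowest HGA, HGA 8, fell inside the AGASAC range. Its adjusted p passed without the fold (log2FC 0.79, SE 0.14, adjusted p = 0.000386, edgeR, Benjamini-Yekutieli). ENO1 had a log2FC of 0.65 (SE 0.19, adjusted p = 0.0665, edgeR, Benjamini-Yekutieli). The summed level of the 5 lower glycolytic genes had a median of 1422 CPM in the HGA and 1421 CPM in the primary AGASAC. Glycolytic enzyme genes have processed copies in mammalian genomes, and reads that map to several places were divided evenly by the authors, so the levels of GAPDH, PGK1, PGAM1, ENO1, TPI1 and both LDH genes are uncertain to that extent.

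**Figure D2:**
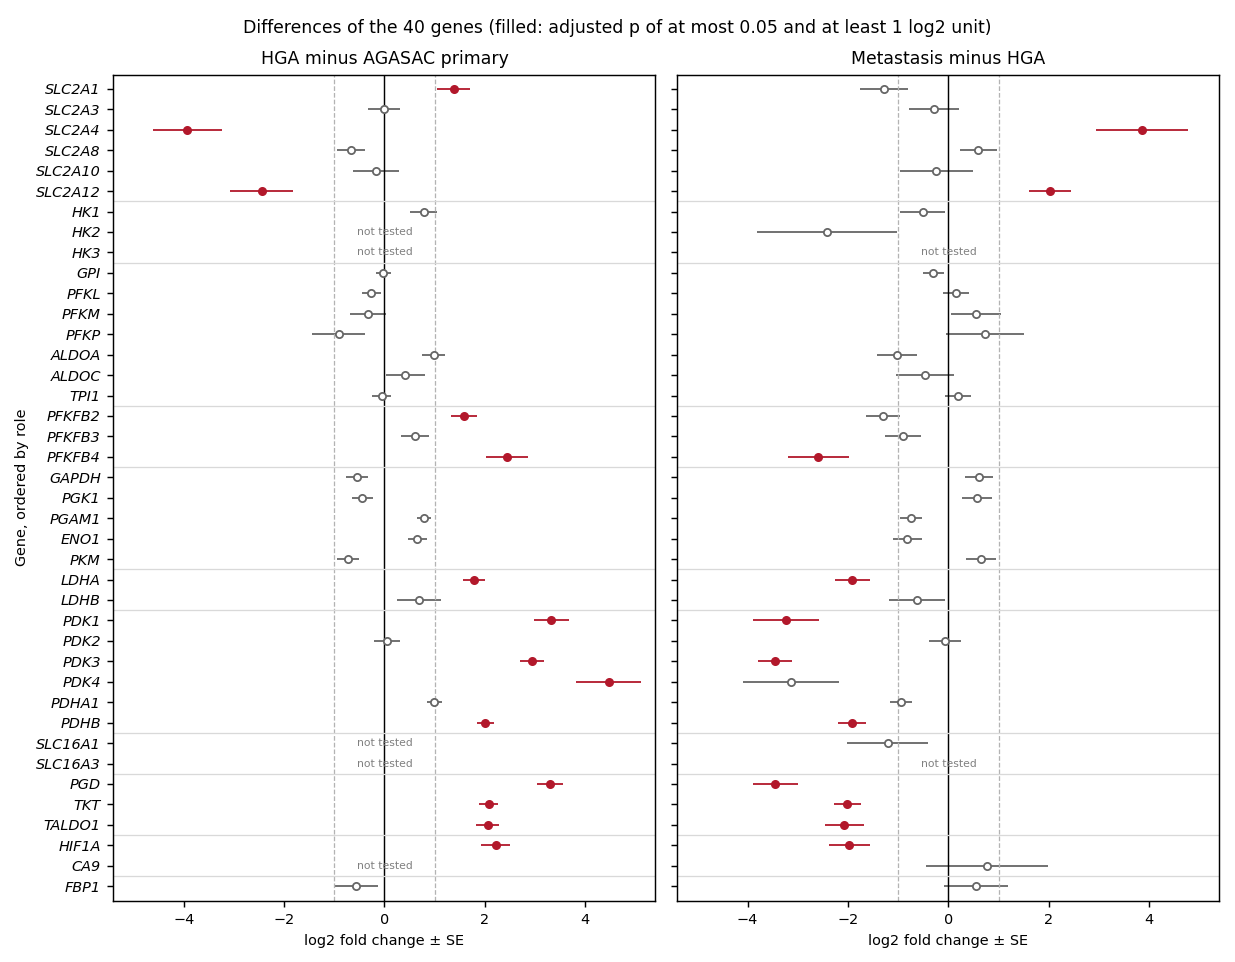
Log2 fold changes with standard errors for the 40 genes, ordered by role, for HGA minus primary AGASAC on the left and metastasis minus HGA on the right, with dashed lines at 1 log2 unit and filled red points for called genes. The upper enzymes from GPI to TPI1 and the lower enzymes from GAPDH to PKM have unfilled points, all within 1 log2 unit on the left. Filled on the left are SLC2A1, SLC2A4, SLC2A12, PFKFB2, PFKFB4, LDHA, PDK1, PDK3, PDK4, PDHB, the pentose phosphate enzymes and HIF1A. SLC2A4 and SLC2A12 point the other way from the rest of the filled genes in both panels. On the right SLC2A1, PFKFB2 and PDK4 are unfilled.

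LDHA, the lactate dehydrogenase subunit that favours the reduction of pyruvate to lactate, was higher in the HGA without overlap. The HGA ranged from 95.0 CPM in HGA 10 through a median of 159 CPM to 424 CPM in HGA 4, and the primary AGASAC from 34.1 through 50.3 to 94.7 CPM in AGASAC 10. The margin between the lowest HGA and the highest AGASAC was narrow. The log2FC was 1.79 (SE 0.22, adjusted p = 5.13e-06, edgeR, Benjamini-Yekutieli).

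LDHB, the subunit of oxidative tissues, was not called (log2FC 0.69, SE 0.44). It ranged from 33.3 to 403 CPM in the HGA, again highest in HGA 4, and from 8.33 to 132 CPM in the primary AGASAC. LDHB made up a median of 33.6% of the counts of both LDH genes in the HGA, with a range of 19.5% to 48.7%, and 53.8% in the primary AGASAC, with a range of 14.5% to 73.3%. The shares overlapped widely.

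SLC16A1 and SLC16A3, the 2 monocarboxylate transporters of the module, which carry lactate, were scarce. SLC16A1 (MCT1) had a median of 4.89 CPM in the HGA, with a highest value of 17.2 CPM in HGA 10, and of 1.63 CPM in the primary AGASAC. SLC16A3 (MCT4, the hypoxia-responsive exporter) had 0 counts in 8 of 10 HGA and 3 of 11 primary AGASAC, with a highest value of 6.20 CPM in AGASAC 6. Levels this close to the depth floor leave no basis for a comparison.

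PDK4 had the largest difference among the called genes. This pyruvate dehydrogenase kinase, the one induced by fasting and fatty acids, ranged from 29.7 CPM in HGA 3 through a median of 184 CPM to 738 CPM in HGA 6. In the primary AGASAC it was between 1.39 and 10.9 CPM in 10 tumors and 55.9 CPM in AGASAC 5, which lay within the HGA range, and the median of all 11 was 6.93 CPM. The log2FC was 4.47 (SE 0.66, adjusted p = 5.65e-05, edgeR, Benjamini-Yekutieli), a 22.1-fold difference. AGASAC 5 also had the highest summed skeletal muscle markers, 1150 CPM, and 228 CPM of 6 adipocyte markers. AGASAC 11 had 402 CPM of the adipocyte markers, and its PDK4 was no higher than 10.9 CPM. Both adipocyte sums were mostly ADIPOQ, with 631 counts in AGASAC 5 and 1644 in AGASAC 11. LPL had 12 and 5 counts in these 2 tumors and FABP4 13 and 2. AGASAC 2 and AGASAC 4 had 684 and 542 CPM of the muscle markers, and their PDK4 was also no higher than 10.9 CPM. The part of these cells in the PDK4 level of AGASAC 5 was not tested.

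PDK3 did not overlap between the tumors. It ranged from 48.6 CPM in HGA 10 through a median of 115 CPM to 188 CPM in HGA 8, and in the primary AGASAC from 5.73 through 14.9 to 23.1 CPM. The log2FC was 2.93 (SE 0.24, adjusted p = 1.11e-08, edgeR, Benjamini-Yekutieli).

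PDK1, a direct target of the hypoxia-inducible factor, ranged from 8.17 CPM in HGA 10 through a median of 32.6 CPM to 57.7 CPM. The primary AGASAC ranged from 1.31 through 2.97 to 10.6 CPM, and only AGASAC 4 exceeded the lowest HGA. The log2FC was 3.33 (SE 0.35, adjusted p = 5.11e-07, edgeR, Benjamini-Yekutieli). PDK2 stood apart from the other kinases, with medians of 17.2 and 23.4 CPM and a log2FC of 0.05 (SE 0.27).

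The make-up of the kinase transcripts differed accordingly. PDK2 supplied between 1.8% and 10.4% of the counts of the 4 PDK genes in the HGA and between 12.2% and 57.0% in the primary AGASAC. PDK4 supplied a median of 58.8% in the HGA, from 14.9% in HGA 3 to 79.5% in HGA 6, and 15.7% in the primary AGASAC, up to 63.1% in AGASAC 5. The HGA thus fell into tumors led by PDK4 and tumors led by PDK3, such as HGA 3 and HGA 8, where PDK3 supplied up to 54.7%.

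**Figure D3:**
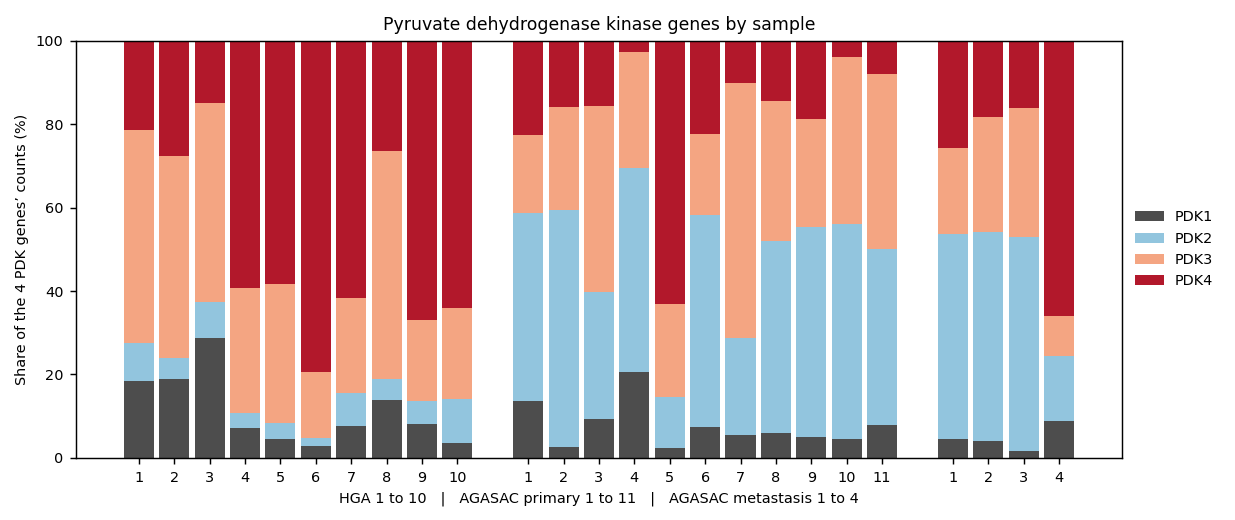
Share of the counts of the 4 PDK genes, in percent, as stacked bars for each sample, with HGA on the left, primary AGASAC in the middle and metastases on the right. PDK2 takes at most 10.4% in any HGA and at least 12.2% in every primary AGASAC, and AGASAC 5 and metastasis 4 show the large PDK4 share otherwise seen in HGA.

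The target of these kinases moved in the same direction as they did. PDHB, the beta subunit of the first enzyme of the pyruvate dehydrogenase complex, ranged from 83.4 CPM in HGA 10 through a median of 187 CPM to 226 CPM, and in the primary AGASAC from 35.2 through 42.5 to 56.6 CPM. No values overlapped, and the log2FC was 2.01 (SE 0.17, adjusted p = 2.08e-08, edgeR, Benjamini-Yekutieli). PDHA1, the alpha subunit that the kinases phosphorylate, passed the adjusted p but not the fold (log2FC 0.99, SE 0.16, adjusted p = 0.000145, edgeR, Benjamini-Yekutieli). It ranged from 176 to 238 CPM in 9 HGA and was 93.8 CPM in HGA 10, compared with 64.1 to 133 CPM in the primary AGASAC. PDHA1 was called in 8 of the 21 fits that left out 1 sample and with RNA extraction batch as a covariate (log2FC 1.21).

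All 3 pentose phosphate enzymes were higher in the HGA. PGD, which yields NADPH by decarboxylating 6-phosphogluconate, was at 499 CPM in HGA 10 and between 1278 and 3188 CPM in the other HGA, and the median of all 10 was 2553 CPM. The primary AGASAC ranged from 138 through 230 to 287 CPM, below every HGA. The log2FC was 3.31 (SE 0.26, adjusted p = 4.59e-09, edgeR, Benjamini-Yekutieli), a 9.91-fold difference.

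The enzymes of the non-oxidative branch, which interconvert sugars of the pathway, followed. TKT ranged from 443 through 620 to 1008 CPM in the HGA and from 108 through 139 to 296 CPM in the primary AGASAC, without overlap (log2FC 2.08, SE 0.19, adjusted p = 6.52e-08, edgeR, Benjamini-Yekutieli). TALDO1 ranged from 201 CPM in HGA 10 through a median of 790 CPM to 1379 CPM in HGA 9, and from 154 through 184 to 264 CPM in the primary AGASAC. Only HGA 10 fell within the AGASAC range (log2FC 2.06, SE 0.23, adjusted p = 1.22e-06, edgeR, Benjamini-Yekutieli). Summed over the 3 genes, the level was 1708 to 4914 CPM in the HGA and 444 to 690 CPM in the primary AGASAC.

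HIF1A, the oxygen-regulated subunit of the hypoxia-inducible factor, was higher in the HGA at the transcript level, although the protein is controlled mainly by its degradation. It ranged from 25.8 CPM in HGA 10 through a median of 59.6 CPM to 110 CPM in HGA 8, and from 5.59 through 11.6 to 26.1 CPM in the primary AGASAC. Only AGASAC 2 exceeded the lowest HGA (log2FC 2.22, SE 0.29, adjusted p = 9.96e-06, edgeR, Benjamini-Yekutieli). CA9, a carbonic anhydrase and a classic target of the factor, was at most 7.31 CPM in 9 HGA and 23.98 CPM in HGA 4, and between 0 and 11.4 CPM in the primary AGASAC.

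FBP1, which reverses the phosphofructokinase step in gluconeogenesis, was not called (log2FC −0.56, SE 0.43). It was between 75.9 and 145 CPM in 8 HGA, but 6.76 CPM in HGA 4 and 2.15 CPM in HGA 10. In the primary AGASAC it ranged from 58.0 through 123 to 229 CPM, so both of those HGA lay below every AGASAC.

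The comparison was also fitted within RNA extraction batches, which are parts of the same samples and so not independent of the calls above. In batch 5 (3 HGA and 3 primary AGASAC), batch 6 (3 and 2) and batch 8 (2 and 3), all 14 called genes kept the sign of their difference in each. For SLC2A1 in batch 8 the log2FC was only 0.068. The number still called was 4 in batch 5, 3 in batch 6 and 2 in batch 8, where so few samples limit the test, and PGD was called in all 3. Leaving out HGA 4 and HGA 10 together, which was chosen after the values were seen, gave 14 genes higher and 1 lower, as PDHA1 and ALDOA passed the fold and SLC2A12 lost its call.

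These were bulk tissues, in which fewer cells of a type and less RNA per cell cannot be told apart. Endothelial markers, 8 genes, summed to 246 to 675 CPM in the HGA and 72.0 to 299 CPM in the primary AGASAC. Adipocyte markers, 6 genes, summed to 229 to 1414 CPM and 5.34 to 402 CPM, but they did not move together. CIDEC was 96.5 to 1264 CPM in the HGA and at most 2.29 CPM in the primary AGASAC, whereas ADIPOQ was 0 to 22.5 CPM in the HGA and 1.78 to 399 CPM in the primary AGASAC, and LEP was at most 2.88 and 0.335 CPM. Macrophage and neutrophil markers, 12 genes, overlapped at 75.1 to 426 CPM and 123 to 532 CPM. The part of these cells in the differences above was not tested.

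Variation among the HGA. The HGA were not alike in these genes. HGA 4 and HGA 9 each had the highest value of the 10 HGA for 10 of the 35 tested genes, and HGA 10 had the highest for 5 and the lowest for 15. HGA 4 had the highest SLC2A1, HK1, PGK1, LDHA and LDHB, at 368, 424, 198, 424 and 403 CPM, compared with next highest HGA values of 164, 207, 106, 221 and 134 CPM. HGA 10 had the lowest PDK1, PDK3, PDHA1, PDHB, PGD, TALDO1, HIF1A and FBP1 and the highest PFKFB3, PFKFB4 and TKT.

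HGA 4 and HGA 10 also had the highest sums of 8 proliferation markers among the HGA, 814 and 1083 CPM, compared with at most 336 CPM in the others. HGA 4 had the fewest counts of all samples, and HGA 10 was the only sample of extraction batch 9 and the only HGA in the second of 2 naming series of the sequencing files, so its batch and its tumor cannot be told apart.

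**Figure D4:**
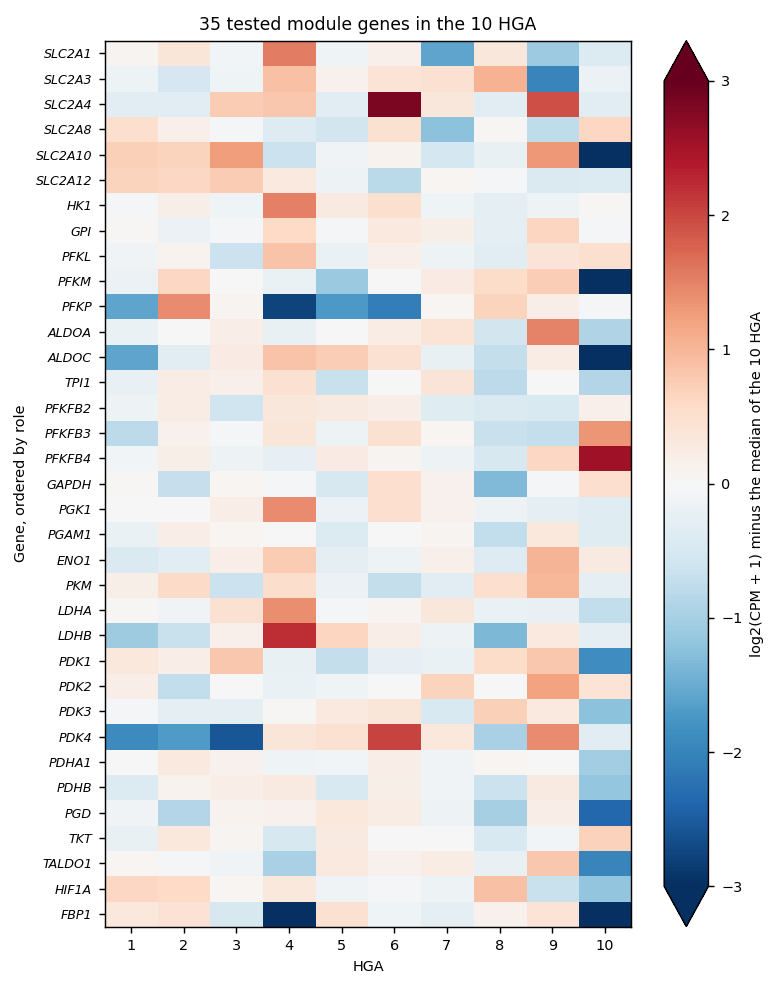
Color map of log2(CPM + 1) minus the median of the 10 HGA for the 35 tested genes in rows and HGA 1 to 10 in columns, with red above and blue below the median and the scale ending at 3 in both directions. HGA 4 is red for SLC2A1, HK1, PGK1, LDHA and LDHB, HGA 10 is blue for PGD, TALDO1, PDK1 and PFKM and red for PFKFB4, and FBP1 is deep blue in both.

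Metastases versus primary tumors. The second comparison asked whether the genes changed between the primary AGASAC and the lymph node metastasis of the same 4 dogs. HK2, HK3, SLC16A1 and SLC16A3 had too few counts, and none of the 36 genes tested was called in either direction, and 0% of all 12629 tested genes were called higher and 0% lower (edgeR quasi-likelihood test, Benjamini-Yekutieli adjustment). This fit left out the dog and treated samples of the same dog as independent, so its standard errors also include differences between dogs. At an unadjusted p under 0.05 in that fit there was 1 of the 36 genes and 145 of all tested genes, and DESeq2 called 0 of the members. With the dog as a block, the fit called 0 members, 0% of all genes higher and 0.00792% lower, which is 1 gene. The median log2FC of the 36 genes was 0.13, compared with 0.00 over all tested genes, and for none of the 36 genes did the 4 metastases and 4 primary tumors separate without overlap, against 1.14% of all tested genes.

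PDK4 had the largest observed difference. It was 6.93, 8.17, 5.04 and 1.39 CPM in the primary tumors of dogs 1 to 4 and 11.0, 7.16, 6.11 and 81.5 CPM in their metastases. The difference came from dog 4 (log2FC 2.31, SE 0.93, adjusted p = 1, edgeR, Benjamini-Yekutieli), and with the dog as a block the log2FC was 1.37. Metastasis 4 also had the highest sum of adipocyte markers of the 4 metastases, 86.3 CPM compared with 8.04 to 28.9 CPM. That sum was mostly ADIPOQ, at 231 counts, and the markers did not move together. FABP4 was also highest in metastasis 4, at 23 counts. Metastasis 2 had more PLIN1 (12 counts against 1), CIDEC (5 against 2), LPL (19 against 13) and LEP (4 against 0). The part of adipocytes in the PDK4 level was not tested.

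Direction was shared by all 4 dogs for only 3 genes. TKT was 171, 108, 114 and 164 CPM in the primary tumors and 193, 127, 161 and 171 CPM in the metastases (log2FC 0.22, SE 0.22, and 0.24, SE 0.14, with the dog as a block). TALDO1 was 156, 184, 154 and 163 CPM in the primary tumors and 157, 192, 180 and 216 CPM in the metastases (log2FC 0.18, SE 0.18, and 0.17, SE 0.14, with the dog as a block). Each was higher in the metastasis in 4 of 4 dogs, without a call, and the TALDO1 log2FC was −0.033 against all 11 primary tumors.

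SLC2A12 was lower in the metastasis in 4 of 4 dogs. It was 15.7, 12.7, 38.5 and 87.0 CPM in the primary tumors and 10.1, 11.9, 36.7 and 21.1 CPM in the metastases (log2FC −0.97, SE 0.66). With the dog as a block the log2FC was −0.73 (SE 0.36), also without a call. The fall was largest in dog 4. LDHA was at 34.1, 49.0, 48.0 and 64.8 CPM in the primary tumors and 47.7, 53.3, 50.5 and 48.6 CPM in the metastases. Its log2FC was 0.03 (SE 0.22), 0.06 (SE 0.19) with the dog as a block, and −0.14 against all 11 primary tumors.

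**Figure D5:**
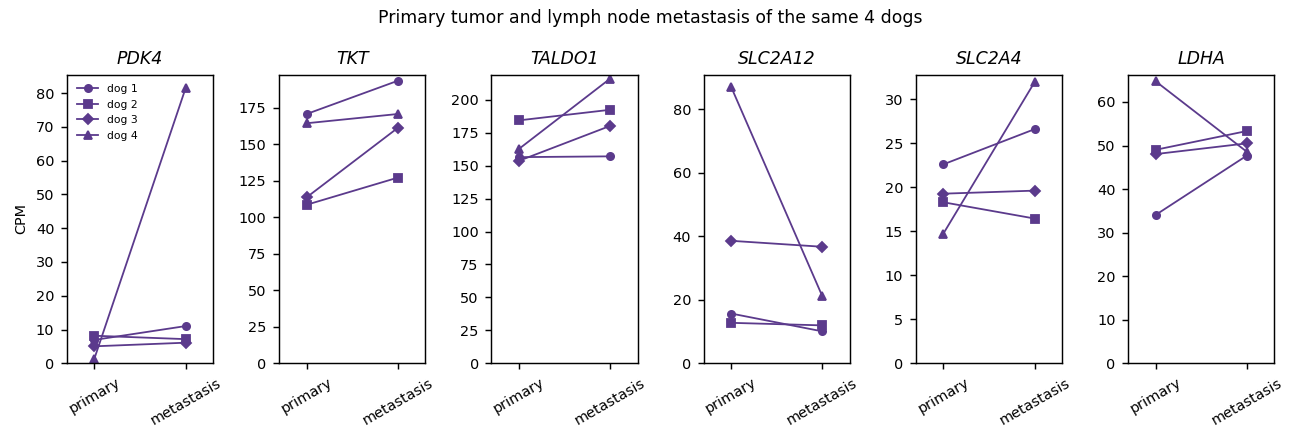
CPM of PDK4, TKT, TALDO1, SLC2A12, SLC2A4 and LDHA in the primary tumor and the metastasis of dogs 1 to 4, with 1 line per dog. TKT and TALDO1 rise slightly in each dog, SLC2A12 falls in each dog and most in dog 4, and PDK4 departs only in dog 4, whose metastasis reached 81.5 CPM; none of these differences was called.

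Some levels were alike in both samples of a dog. HK1 was highest in dog 1 at both sites, 244 CPM in the primary tumor and 320 CPM in the metastasis, while the other 3 metastases had at most 93.7 CPM. HIF1A was 26.1 and 29.4 CPM in dog 2 and 8.74 and 8.11 CPM in dog 1. PDK1 was 10.6 and 10.9 CPM in dog 4 and no more than 4.22 CPM in either sample of the other dogs. T cell markers, 7 genes, summed to between 43.1 and 63.7 CPM in the metastases and 19.0 and 39.7 CPM in the same dogs' primary tumors, and skeletal muscle markers to at most 6.71 CPM and at least 24.3 CPM.

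Metastases versus HGA. The third pair of groups, 4 metastases and the same 10 HGA, shares the HGA with the first comparison and is not independent of it. Of the 40 genes, 38 were tested and 11 were called. Higher in the metastases were 2 genes, against 7.69% of all 13195 tested genes, and lower were 9, against 8.4% of all. The median log2FC of the 38 genes was −0.69, compared with −0.02 over all tested genes, and 10 genes did not overlap between the groups, against 16.1% of all tested genes.

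The transporters SLC2A4 (log2FC 3.86, SE 0.91, adjusted p = 0.0397, edgeR, Benjamini-Yekutieli) and SLC2A12 (2.02, SE 0.42, adjusted p = 0.0155, edgeR, Benjamini-Yekutieli) were higher in the metastases. SLC2A12 was at least 10.1 CPM in the metastases and at most 7.99 CPM in the HGA, so that here the groups did not overlap. SLC2A4 had enough counts to be tested only because of the metastases, where it was high. The SLC2A4 call was lost on leaving out any 1 metastasis or any 1 of HGA 2, 3, 4, 5, 7 and 8, with an adjusted p of up to 0.148, and the SLC2A12 call was lost without metastasis 3 or without metastasis 4, with an adjusted p of up to 0.228.

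Of the 9 genes lower in the metastases, the pentose phosphate enzymes had log2FC values of −3.45 (PGD, SE 0.46), −2.01 (TKT, SE 0.27) and −2.07 (TALDO1, SE 0.39). PDK3 had −3.46 (SE 0.34), with 8.76 to 11.8 CPM in the metastases compared with at least 48.6 CPM in the HGA, and PDK1 had −3.23 (SE 0.66). LDHA had −1.91 (SE 0.34), with 47.7 to 53.3 CPM in the 4 metastases, and PDHB had −1.93 (SE 0.28).

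HIF1A (−1.97, SE 0.41) and PFKFB4 (−2.59, SE 0.61) completed the 9. The adjusted p-values of PGD, PDK3, LDHA and PDHB were 0.000283, 1.57e-05, 0.00452 and 0.000739 by edgeR with Benjamini-Yekutieli adjustment. The calls of PDK1, HIF1A and PFKFB4 were lost in some fits that left out 1 sample. PDK1 lost its call without metastasis 1, 2 or 3, HIF1A without metastasis 1, 3 or 4, and PFKFB4 without any 1 metastasis or HGA 2, 5, 6 or 9.

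PDK4 was not called in this pair (log2FC −3.13, SE 0.96, adjusted p = 0.192, edgeR, Benjamini-Yekutieli), and without metastasis 4 its log2FC was −4.84 and it was called. SLC2A1, which was called in the first comparison, had a log2FC of −1.28 (SE 0.47) and was not called here. PFKFB2 had −1.31 (SE 0.34, adjusted p = 0.0692, edgeR, Benjamini-Yekutieli), and metastasis 4, at 133 CPM, lay within the HGA range. Leaving out HGA 4 and HGA 10 gave 1 gene higher and 10 lower, as SLC2A4 lost its call and PDHA1 gained one.

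Neighbouring genes of the pathway. A list of 76 further genes of glucose, pyruvate, glycogen and hypoxia biology had 69 members in the table, of which 50 were tested between HGA and primary AGASAC. Higher in the HGA were 14, against 12.6% of all tested genes, and lower were 3, against 12.5%, with a median log2FC of 0.42 over the 50. This list too was chosen with earlier results of these data known. The largest rises were ADM (log2FC 4.45, SE 0.60), a vasodilator peptide gene induced by hypoxia, EGLN3 (4.24, SE 0.92), an oxygen sensor that marks the hypoxia-inducible factor for degradation, PCK2 (3.77, SE 0.40), the mitochondrial enzyme of gluconeogenesis, and SLC16A7 (3.22, SE 0.60), the monocarboxylate transporter MCT2.

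ADM was 33.4 to 131 CPM in 9 HGA and 0 in HGA 10, and 0 to 10.9 CPM in the primary AGASAC. EGLN3 was uneven among the HGA, with 1442 and 600 counts in HGA 1 and HGA 5 but 9 in HGA 2 and 0 in HGA 10. AGASAC 4 had 76 counts of EGLN3, so the groups overlapped. PCK2 was 25.4 to 278 CPM in the HGA and 1.15 to 16.3 CPM in the primary AGASAC, without overlap. Other genes called higher included PGLS, a lactonase of the pentose phosphate pathway, DLAT, DLD and PDHX of the pyruvate dehydrogenase complex, its phosphatase PDP2, the carrier subunit MPC2, and BNIP3, NDRG1 and INSIG2 of the hypoxia list. BNIP3 lost its call in 2 of the 21 fits that left out 1 sample, and PDHX, PDP2, MPC2 and BNIP3 lost theirs with library sizes alone as the scaling.

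Lower in the HGA were ENO2, the neuronal enolase (log2FC −4.08, SE 0.88), MPC1 (−1.55, SE 0.35) and BPGM (−1.30, SE 0.35), which makes 2,3-bisphosphoglycerate. BPGM lost its call in 13 of the 21 fits that left out 1 sample, with an adjusted p of up to 0.107 (edgeR, Benjamini-Yekutieli). ENO2 lost its call with extraction batch as a covariate, where its log2FC was −2.10 (adjusted p = 0.244, edgeR, Benjamini-Yekutieli). MPC1 and MPC2 form the mitochondrial pyruvate carrier together, and in the fit of all 21 tumors they moved apart. MPC1 was 134 ± 97.7 CPM (SD, n = 10) in the HGA and 400 ± 192 CPM (n = 11) in the primary AGASAC, and MPC2 was 316 ± 96.5 and 143 ± 68.1 CPM. Within naming series A (9 HGA and 3 primary AGASAC) neither was called, with log2FC values of −0.70 for MPC1 and 0.76 for MPC2. Within extraction batch 8 MPC1 had a log2FC of −0.86 and was not called. Between metastases and primary tumors 53 of these genes were tested and 0 were called. Between metastases and HGA 56 were tested, 3 were higher in the metastases (GAPDHS, ENO2 and SLC2A13), against 7.69% of all tested genes, and 6 lower (ADM, PCK2, FBP2, DLD, PGLS and INSIG2), against 8.4%. Of the 14 fits that left out 1 sample, ENO2 lost its call in 12, with an adjusted p of up to 0.403, and INSIG2 in 8, with up to 0.168 (edgeR, Benjamini-Yekutieli). ADM and SLC2A13 lost theirs in 4, FBP2 in 3 and PGLS in 2. GAPDHS had 0 counts in all 10 HGA and 4.51 to 7.79 CPM in the metastases. It had enough counts to be tested only because of the metastases, so its call says no more than those counts. The primary AGASAC had 2 to 52 counts of GAPDHS, with a mean of 6.33 CPM, so its presence was not particular to the metastases. It was not tested between HGA and primary AGASAC.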

How the data were processed

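RNA of 25 archived canine tumors was sequenced with QuantSeq 3′. The authors trimmed reads with Cutadapt, aligned them to CanFam3.1 with STAR and deposited raw counts per gene from 2 rounds of featureCounts, the second on annotation extended at the 3′ end, with multi-mapped reads divided evenly. The deposited table also holds a normalized signal (counts divided by size factors by the authors), and log2 fold changes and p-values of the authors' own comparison, which were not used. Tool versions are not given in the sources used here. Promoters, sequences and coordinates were not analysed here.

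From the raw counts, edgeR 4.0.16 in R 4.3.3 was run on all genes with at least 10 counts in enough samples (filterByExpr, minimum total 15), TMM factors, glmQLFit and glmQLFTest, and Benjamini-Yekutieli adjustment. A call required both an adjusted p up to 0.05 and a difference of 1 log2 unit or more. The standard error is the size of log2FC divided by the square root of F. DESeq2 1.42.0, other scalings, filters, batches and left-out samples were alternatives. Fits were tested on simulated data. The labels tie each metastasis to the dog of 1 primary tumor, and the correlations of same-dog deviations were 0.730, 0.517, 0.572 and 0.428; the block changed no call among these genes. Numbers shared by HGA and AGASAC name different dogs.

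Named genes were all called members, the largest difference in each role and the 4 largest called pathway genes per direction, plus further called genes by name; 1 gene of the pathway list is not reported here. PDHA1, PGAM1 and ALDOA (adjusted p only), the other genes given for HGA 4 and HGA 10, and single-dog values were picked after their values were seen. Members and lists were chosen with earlier results of these data known. Extraction batches and the naming series of the sequencing files came from the study's sample notes. The floors cover counting error only, whereas the standard errors also include the spread between samples.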

Additional observations from a re-analysis of the deposited data

Results flagged for a closer look

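Each of the 40 genes was checked for a sample far from the rest of its group. The check covered the 10 HGA and the 4 metastases, 80 sets in all, by Dixon's criterion on CPM. Chance meets that criterion in about 1 in 20 sets if the values are normally distributed. CPM values can be skewed, and some sets lie near the depth floor, so that rate may not apply here. The 11 primary AGASAC were not checked. In all, 17 values stood apart, and all lay above the rest of their group except PDHA1 in HGA 10. Their number cannot be set against the chance rate, and their cause was not tested.

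In HGA 4 these were SLC2A1 at 368 CPM, HK1 at 424 CPM, PGK1 at 198 CPM, LDHA at 424 CPM, LDHB at 403 CPM, CA9 at 23.98 CPM and SLC16A3 at 1.84 CPM, the last of which is only 3 counts. HGA 10 stood above the other HGA for PFKFB3 at 207 CPM, PFKFB4 at 196 CPM and SLC16A1 at 17.2 CPM, and below them for PDHA1 at 93.8 CPM. HGA 6 stood apart for SLC2A4 at 7.96 CPM and HGA 9 for ALDOA at 437 CPM.

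Among the metastases, metastasis 4 stood above the others for PDK4 at 81.5 CPM, ALDOA at 154 CPM and PDK1 at 10.9 CPM, and metastasis 1 for HK1 at 320 CPM. Metastasis 4 had the highest value of the 4 metastases for 19 of the 35 genes tested between HGA and AGASAC.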

How the results depend on the processing

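Between HGA and primary AGASAC (12 members higher, 2 lower), the higher count was 11 to 14 in fits of all samples and 9 with at least 10 counts in every sample, a setting that leaves fewer genes to test. It was 4, 3 and 2 within extraction batches 5, 6 and 8. The lower count was 0 with 10 counts in every sample and within batches 5, 6 and 8, and 1 within naming series A (9 HGA and 3 AGASAC), with DV200 as a covariate, with the replicate block and with HGA 4 and HGA 10 omitted. Leaving out 1 sample gave 12 to 14 higher and 1 to 2 lower. The replicate block pairs different dogs by number alone: deviations of same-numbered samples correlated at −0.05 to 0.04 over 10 pairs, none above 0.1, and the block gave 12 higher and 1 lower, without SLC2A1 and SLC2A12 and with PDHA1; ENO2 (log2FC −2.74), EGLN3 and BNIP3 also lost their calls. Library sizes alone shifted the median of all genes to −0.33, and to 0.26 between metastases and HGA, and SLC2A1 lost its call. Within naming series A, the members SLC2A1, SLC2A4 and PFKFB2 lost their calls. So did INSIG2, PDHX, ENO2, EGLN3, PDP2, BPGM, BNIP3, NDRG1, MPC1 and MPC2 of the pathway list.

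Between metastases and HGA (2 higher, 9 lower), the higher count was 0 with at least 10 counts in every sample, and 1 in 1 fit of all 25 samples and with HGA 4 and HGA 10 omitted. Leaving out 1 sample gave 0 to 2 higher and 6 to 10 lower. DESeq2 and Benjamini-Hochberg adjustment added PDK4 and PFKFB2, and the latter also SLC2A1, and library sizes alone removed HIF1A and PFKFB4. The counts between metastases and primary tumors stayed at 0 under every alternative run, the dog block included, which changed no call; the log2FC of PDK4 was 1.37 there, and DESeq2 gave no p for it. No called gene reversed its direction under any alternative run.

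Genes that were not called, with estimates near 0, did change sign. Between HGA and primary AGASAC, PDK2 had log2FC values of −0.25 with library sizes alone, −0.0019 with no filter, −0.019 with 10 counts in every sample and −0.64 within batch 6. SLC2A3 had 0.076 with all 15 AGASAC, 0.16 with extraction batch as a covariate, 0.038 and 0.85 within batches 5 and 8, 0.57 within naming series A and 0.054 with the replicate block. SLC2A10 had 0.11 with the batch covariate, 0.16 and 0.18 within batches 5 and 8, 1.31 within naming series A and 0.066 with HGA 4 and HGA 10 omitted. GPI had 0.066 with all 15 AGASAC, 0.054 and 0.17 within batches 5 and 8 and 0.18 within naming series A. TPI1 had 0.13 with the batch covariate and 0.14 and 0.25 within batches 6 and 8. PFKM had 0.10 and 0.32 within batches 5 and 6, PGK1 0.094 within batch 5 and GAPDH 0.11 within batch 8. Leaving out 1 sample gave −0.13 to 0.014 for TPI1, −0.10 to 0.033 for GPI, −0.13 to 0.13 for PDK2 and −0.16 to 0.11 for SLC2A3. Between metastases and primary tumors, TALDO1 had −0.031 in 1 fit of all 25 samples and −0.033 with all 11 primary tumors, LDHA had −0.14 in both, and LDHA ranged from −0.12 to 0.20 on leaving out 1 sample. Where no cause is stated, the cause was not tested. Depth limits what can be said of HK2, HK3, SLC16A1, SLC16A3 and CA9.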

Other observations

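HGA 4 and HGA 10 shared levels outside the 40 genes that the other 8 HGA did not have. VEGFA, the angiogenic growth factor gene of the hypoxia list, was 1142 CPM in HGA 4 and 122 CPM in HGA 10, compared with 10.8 to 32.9 CPM in the other HGA and at most 40.7 CPM in the primary AGASAC. NDRG1 was 310 and 160 CPM, compared with at most 96.8 CPM in the others. MPC1, a subunit of the mitochondrial pyruvate carrier, was 302 and 328 CPM, compared with 69.8 to 136 CPM in the others, and lay within the primary AGASAC range of 165 to 695 CPM.

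Not every gene of the hypoxia list moved with them. ADM was 60.3 CPM in HGA 4, within the range of the others, and 0 in HGA 10. EGLN3 ran from 0 in HGA 10 to 324 CPM in HGA 5 with a median of 19.5 CPM. HIF1A itself was 73.8 CPM in HGA 4 and 25.8 CPM in HGA 10. These genes were picked after their values were seen and no test was run on them.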
